A study of Mus musculus with 40 samples.

Results

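The response of the wild-type mouse kidney to a high-fat diet was described from whole-kidney RNA sequencing libraries of EC-EGFR-WT mice, 5 on the high-fat diet (HFD) and 5 on the standard diet that the labels call SD. These 10 libraries were chosen by their labels of genotype, tissue and diet, out of 40 libraries of the series, and no measured value entered the choice. HFD delivered 60% and SD 10% of its energy as fat, each for 18 weeks from an age of 6 weeks. EC-EGFR-WT mice were C57BL/6J mice that carried the Tie2-Cre transgene (the Tek-cre allele) but no floxed Egfr, so both diet groups expressed Cre from an endothelial promoter. KO kidneys (Tie2-Cre with floxed Egfr; 5 HFD and 5 SD) entered the same fit and are given beside the WT values where they bear on them. The labels number the libraries but do not say that each came from a separate animal, so p-values measure the spread between these libraries, which may be partly technical. The sex of the animals and the hour of tissue collection were not named in the sources used here. Levels are given as FPM (counts of fragments scaled to a common normalized library size).

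A kidney is a mixture of tubule segments, each with its own transporters, and of vessel, stromal and immune cells. The proximal tubule, with its segments S1, S2 and S3, takes up glucose, amino acids and filtered proteins, secretes organic anions and burns fatty acids as its main fuel; the loop of Henle, the distal convoluted tubule and the collecting duct then adjust salt, acid and water. In mice, the proximal tubule is also a target of androgens, and many of its genes are expressed at different levels in males and females.

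The deposited table gave between 23354297 and 48833447 counts on genes per WT library, and all 9 libraries other than the HFD library a12 lay at or below 31369285. Defining markers were present: the proximal phosphate transporter Slc34a1 had a mean of 5651 FPM in SD, the thick limb gene Umod 2156 FPM and the collecting duct water channel Aqp2 169.7 FPM. The HFD library a12 and the KO HFD library a1 differed by less than sampling noise (median chi-square over genes 0.0269, against 1.62 or more for the other pairs), so they cannot be taken as separate animals, and which of the 2 labels holds for them is not known. Means of the WT HFD group include a12 as the fifth library; counts of calls were repeated without both, and 9 of 121 named called genes lost their call (Ctss, C1qb, Lyz2, Thrsp, Cidea, Gpat3, Cyp2d12, Slc3a2 and H2-DMb1). In the SD group, a17 stood apart in immediate-early genes (mean level 7.11 on the log2(FPM + 1) scale, against 2.83 to 3.19 in the other SD libraries and 3.12 to 3.87 under HFD), and a18 had the lowest podocyte level (3.41, against 4.18 to 4.77 in the other SD libraries). Every gene on chromosomes 9, MT, X and Y had 0 counts in the table (7072 genes), so these genes were not analysed here.

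Across 15943 genes tested, 347 genes changed with HFD in WT kidneys, 202 of them higher (1.27%) and 145 lower (0.909%). These shares are the background to the counts of called genes in every list below. A gene was called when its adjusted p was under 0.05, its fold change over 1.5 and its mean over 5 FPM in at least 1 diet group; adjusted p-values are those of edgeR's quasi-likelihood test with Benjamini-Hochberg adjustment over all genes tested. By adjusted p alone, 483 genes were higher (3.03%) and 586 lower (3.68%). All 5 HFD libraries lay above all 5 SD libraries for 478 genes (3%) and below them for 581 (3.64%). Of the 347 called genes, 77 were more than 2-fold higher and 45 more than 2-fold lower, and 286 had groups that did not overlap. Without a1 and a12, 384 genes were called, and 323 of the 347 were among them.

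Among called genes whose groups did not overlap, the largest rise was that of Gulo (ENSMUSG00000034450, chromosome 14, 65986786 to 66009207 on GRCm38), the last enzyme of vitamin C synthesis. Its SD libraries a16 to a20 held 0.266, 0.172, 0.350, 0.228 and 0.0827 FPM, and its HFD libraries a11 to a15 held 10.7, 5.31, 7.62, 9.17 and 3.68 FPM. The lowest HFD value was far above the highest SD value, and the log2 fold change (HFD minus SD) was 5.01 (standard error, SE, 0.44, adjusted p = 6.39e-07). Synpr, a synaptic vesicle protein, fell furthest among genes whose groups did not overlap, from 8.60 ± 3.52 to 0.343 ± 0.498 FPM (mean ± SD, n = 5) (log2 fold change -4.43, SE 0.83, adjusted p = 0.00271). Leaving out 1 library moved this fold change between -6.02 and -4.17. Ugt1a10 rose by 3.97 on the log2 scale (SE 0.49, adjusted p = 3.77e-05), but 64.3% of its exon bases are shared with the other genes of the Ugt1a locus, so the member that changed is uncertain. Among the other genes with the 10 largest rises were Slc7a12, Cyp2c69, Prlr, Fgb, Gc and Cyp24a1, which are described with their group. Among the 10 largest falls, Gm6300 and Gm4208 are named only, Igf2bp1 encodes an RNA-binding protein and Cntnap5a a neurexin-like protein; the others included Mfsd2a, Acsm3, Lpl and Slc22a7. Gm15441, a noncoding RNA antisense to Txnip, had 6.36, 2.79, 16.7, 2.93 and 3.23 FPM in SD and 1.14, 1.87, 2.46, 1.70 and 1.598 FPM in HFD (log2 fold change -1.86, adjusted p = 0.0157). Its call was lost without a18 (-1.11, adjusted p = 0.0630), without the count filter (adjusted p = 0.0510), with only the 10 WT libraries (0.0734) and with the podocyte covariate (-0.94, 0.121), and 36.2% of its exon bases are shared with Txnip, which stood at 0.10 (adjusted p = 0.862).

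In KO kidneys, 196 genes were called higher (1.23%) and 148 lower (0.928%) under HFD. The diet effect of KO and WT was compared by an interaction term in edgeR's quasi-likelihood fit: 0 genes had an adjusted p under 0.05 (smallest adjusted p = 1.00), 285 had an unadjusted p under 0.05, and 10 of the 347 genes called in WT were among these. The DESeq2 Wald test also gave 0 genes. Without a1 and a12, 345 of the 347 genes (99.4%) had the same direction in KO as in WT, against 72.2% of all genes with a value. The KO libraries are not part of the WT contrast, but they entered the filter, normalization and dispersion behind the 347 calls; with only the 10 WT libraries, 289 genes were called.

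Along the nephron, the called genes of the S1 marker list (Slc5a2, Gatm) were higher under HFD. Those of the S2 list (Slc22a7, Slc22a12) and the S3 list (Slc22a19, Cyp7b1, Atp11a) were lower. The segment that expressed each gene was not measured here, so S1, S2 and S3 stand for these lists. Of 10 S1 markers tested, 2 were called higher and 0 lower (median log2 fold change 0.33, over all genes tested -2.66e-04). Of 8 S2 markers, 0 were called higher and 2 lower (median -0.38), and of 11 S3 markers, 0 were called higher and 3 lower (median -0.56); by adjusted p alone, 5 S2 and 7 S3 markers were lower and 1 of each higher. In whole-kidney RNA, fewer cells of a type and less RNA per cell cannot be told apart.

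Slc5a2 (ENSMUSG00000030781, chromosome 7, 128265657 to 128272430), the sodium-glucose transporter SGLT2 of the early proximal tubule, had 354, 288, 306, 403 and 444 FPM in SD libraries a16 to a20 and 609, 675, 651, 581 and 642 FPM in HFD libraries a11 to a15. Each HFD value exceeded each SD value, and the log2 fold change was 0.81 (SE 0.20, adjusted p = 0.0172). It was 0.87 without a16 and a19 (adjusted p = 0.0629) and 0.69 with the podocyte level as a covariate (adjusted p = 0.0784), and neither fit kept the call. Of its exon bases, 20.6% overlap the gene BC017158 on the other strand, and the strand setting of the counting is not given. Gatm, the first enzyme of creatine synthesis, rose from 639 ± 227 to 1170.2 ± 185 FPM (log2 fold change 0.87, adjusted p = 0.00824), with SD libraries a19 and a20 at 935 and 832 FPM, near the lowest HFD library at 907. The glucose exporter Slc2a2 stood at a log2 fold change of 0.45 (adjusted p = 0.0314) below the fold threshold, and the protein receptors Lrp2 and Cubn at -0.22 and -0.03 (adjusted p = 0.211 and 0.893).

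Slc22a7 (ENSMUSG00000067144, chromosome 17, 46432183 to 46438457), the organic anion transporter OAT2, had 198, 229, 447, 222 and 251 FPM in SD and 32.8, 136, 92.9, 58.03 and 82.7 FPM in HFD, in the same library order. The groups did not overlap, with a18 apart at the top of the SD group, and the log2 fold change was -1.74 (SE 0.40, adjusted p = 0.0113). Slc22a12, the urate transporter URAT1, fell from 1694 ± 269 to 1121 ± 118 FPM (log2 fold change -0.60, adjusted p = 4.34e-04). It sat at the fold threshold and missed it without a11, a14, a17 or a18 (-0.54, -0.57, -0.58 and -0.48), and 30.1% of its exon bases overlap Nrxn2 on the other strand. Slc22a8, the organic anion transporter OAT3, went the other way at 0.51 (adjusted p = 0.0356), and Slc22a6, OAT1, stood at -0.53 (adjusted p = 0.00115).

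Slc22a19 (ENSMUSG00000024757, chromosome 19, 7673061 to 7711310), the organic anion transporter OAT5 of the straight proximal tubule, had 96.9, 82.1, 88.4, 87.2 and 97.0 FPM in SD and 24.7, 43.5, 44.5, 43.8 and 63.7 FPM in HFD, in the same library order. The groups lay clearly apart, and the log2 fold change was -1.04 (SE 0.21, adjusted p = 0.00390). Atp11a, a phospholipid flippase, fell by 0.67 on the log2 scale (1818 ± 269 to 1139 ± 141 FPM, adjusted p = 0.00170), and Cyp7b1, an oxysterol hydroxylase, fell by 0.83 (218 ± 44.8 to 122 ± 29.9 FPM, adjusted p = 0.0211). Cyp7b1 lost its call without a11, a13, a14 or a18 (adjusted p = 0.0624, 0.0542, 0.0739 and 0.0855). Among the S3 markers not called, the cystine transporter Slc7a13 stood at -0.56 (adjusted p = 0.0145), the lactate transporter Slc5a8 at -0.58 (adjusted p = 6.18e-04) and the glucose transporter Slc5a1, the SGLT1 of this segment, at 0.35 (adjusted p = 0.00159).

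**Figure D1:**
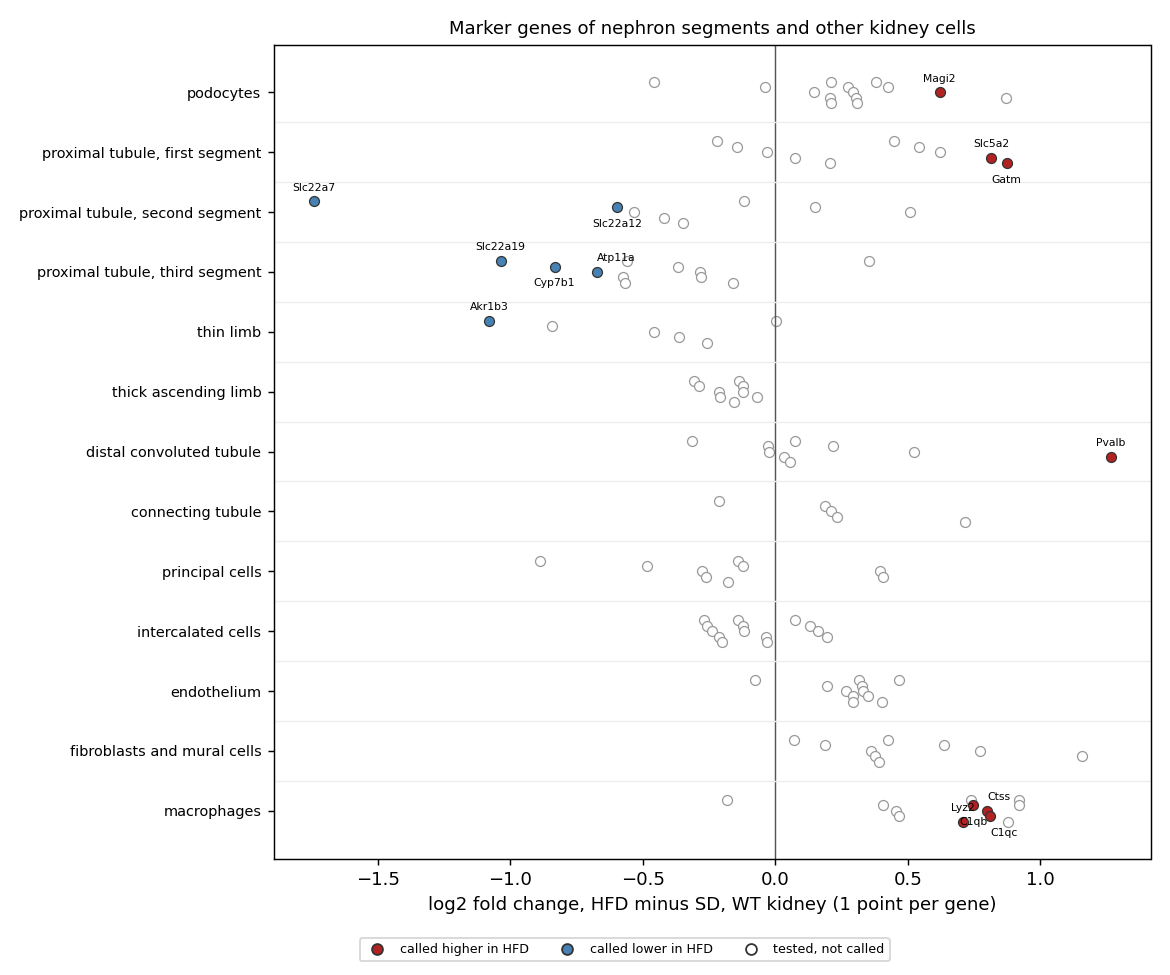
Log2 fold changes (HFD minus SD, WT kidney; x axis) of the marker genes tested for each nephron segment or cell type (y axis), with called genes filled and named and members not reported here left out. Called genes lie to the right in the list of the first proximal tubule segment (Slc5a2 at 0.81, Gatm at 0.87). They lie to the left in the S2 and S3 lists (Slc22a7 at -1.74, Slc22a19 at -1.04). The thick ascending limb, connecting tubule, principal cell, intercalated cell and endothelial lists hold no called gene.

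Beyond the proximal tubule few markers were called. Pvalb, a calcium-binding protein of the early distal convoluted tubule, rose from 21.3, 16.1, 43.7, 18.5 and 11.8 FPM in SD to 49.4, 69.9, 53.3, 50.1 and 44.7 FPM in HFD, in the library order above (log2 fold change 1.27, SE 0.26, adjusted p = 0.00580). The SD library a18, at 43.7, came close to the lowest HFD library, at 44.7, and the adjusted p was 0.0581 without a16 and a19. Slc12a3, the thiazide-sensitive salt transporter that defines this segment, had a log2 fold change of 0.52 (adjusted p = 0.115) and was called higher without a12 (0.66, adjusted p = 0.0221). Akr1b3, the aldose reductase that makes sorbitol in the inner medulla, fell by 1.08 on the log2 scale (128 ± 43.5 to 60.5 ± 21.2 FPM, adjusted p = 0.0107), with overlapping groups, and it was 1 of 6 thin limb markers tested. In the thick ascending limb (9 genes), connecting tubule (5), principal cells (9) and intercalated cells (14), 0 markers were called by edgeR's quasi-likelihood test, and 0, 1, 4 and 0 had an unadjusted p under 0.05; Umod stood at -0.12 (adjusted p = 0.628) and Aqp2 at -0.26 (adjusted p = 0.558). The DESeq2 Wald test called 1 connecting tubule marker, Slc8a1, a sodium-calcium exchanger, at 0.71 (adjusted p = 0.0164), which the edgeR fit also called without a12 or without a17 (0.86 and 0.85). The principal cell marker Fxyd4, a regulator of the sodium pump, was called lower without a12 (-0.61, adjusted p = 0.0276).

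Of 15 podocyte markers, Magi2, a scaffold protein of the slit diaphragm, was called higher (7.65 ± 1.78 to 11.8 ± 1.43 FPM, log2 fold change 0.62, adjusted p = 0.0316). The call was lost without a11, a14, a15, a16 or a18 (adjusted p from 0.0571 to 0.0837). Nphs1, nephrin, stood at 0.30 on the log2 scale (adjusted p = 0.554). The summed level of the podocyte markers was 280.0 to 662 FPM in SD and 553 to 633 FPM in HFD; that of the endothelial markers was 274 to 761 FPM and 661 to 713 FPM, and 0 of the 11 endothelial markers tested were called by edgeR's quasi-likelihood test or the DESeq2 Wald test (1 had an unadjusted p under 0.05). The endothelial marker Eng, a TGF-beta co-receptor, was called higher without a17 (0.66, adjusted p = 0.00747). The low end of both SD ranges was a18; the DESeq2 Wald test called 2 podocyte markers.

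Genes known to be higher in male than in female mouse kidneys were lower under HFD. The sex of the animals was not named, and genes on chromosomes X and Y had no counts. Whether the diet groups differed in sex could therefore not be checked, for these genes or for the female-biased genes below. Of 14 tested, 0 were called higher and 8 lower (median log2 fold change -0.79), and for 11 every HFD library lay below every SD library (3.64% over all genes tested). Their mean level was 9.49 to 9.80 on the log2(FPM + 1) scale in SD and 8.48 to 8.97 in HFD, so the groups did not overlap. The background share of genes called lower was 0.909%. The list was written with an earlier account of these data known. Cyp7b1 and Slc7a13 are members of this list and of the S3 list, so the falls of the lists are not separate observations.

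Slco1a1 (ENSMUSG00000041698, chromosome 6, 141907282 to 141946962), an organic anion transporter of the brush border, had 526, 564, 597, 585 and 726 FPM in SD libraries a16 to a20 and 194, 261, 212, 139.8 and 225 FPM in HFD libraries a11 to a15 (log2 fold change -1.54, SE 0.19, adjusted p = 3.16e-05). Odc1, the rate-limiting enzyme of polyamine synthesis, had 1884, 1977, 2279, 1995 and 2476 FPM in SD and 698, 1224, 1054, 716 and 951 FPM in HFD (log2 fold change -1.19, SE 0.15, adjusted p = 3.69e-05). Cyp4a12a, which makes the vasoconstrictor 20-HETE, had 294, 289.8, 325, 316 and 283 FPM in SD and 66.1, 171, 153, 51.4 and 148 FPM in HFD (log2 fold change -1.35, SE 0.32, adjusted p = 0.0140; 0.0611 without a16 and a19 and 0.0510 without the count filter). None of these 3 genes overlapped between the diets; the HFD libraries a11 and a14 were lowest for Odc1 and Cyp4a12a.

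Acsm3, a medium-chain acyl-CoA synthetase, fell by 1.82 on the log2 scale (669 ± 123 to 189 ± 26.5 FPM, adjusted p = 3.53e-06), and Cyp2e1, a cytochrome P450 of ethanol and ketone metabolism, by 1.03 (2134 ± 354 to 1048 ± 191 FPM, adjusted p = 5.46e-05). For Acsm3, 39.7% of the exon bases overlap Eri2 on the other strand, and Eri2 itself was called lower (-0.79, adjusted p = 0.0197; 0.0596 without a11 and 0.0610 without a20), so the 2 cannot be told apart where reads were counted without strand. The kidney androgen-regulated protein Kap fell from 27453 ± 8912 to 15769 ± 2819 FPM (log2 fold change -0.80, adjusted p = 0.00698), and without a18 it stood at -0.58, under the fold threshold. Gusb, the lysosomal beta-glucuronidase, fell by 0.77 (adjusted p = 0.00362). Not every male-biased gene moved: Cyp4b1 stood at -0.15 (adjusted p = 0.423) and Cyp2j13 at -0.06 (adjusted p = 0.736).

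Genes known to be higher in females went mostly the other way. Of 6 tested, 4 were called higher (1.27% of all genes) and 1 lower. Prlr (ENSMUSG00000005268, chromosome 15, 10177238 to 10349180), the prolactin receptor, had 10.4, 6.23, 5.12, 4.75 and 5.87 FPM in SD and 60.2, 22.1, 45.4, 67.2 and 46.6 FPM in HFD (log2 fold change 2.89, SE 0.41, adjusted p = 2.15e-04). Slc7a12, an amino acid transporter, had 4.69, 3.99, 0.656, 2.09 and 1.86 FPM in SD and 27.5, 6.70, 21.5, 42.3 and 23.4 FPM in HFD (log2 fold change 3.17, SE 0.56, adjusted p = 0.00170). For both genes the groups did not overlap and a12 was the lowest HFD library. Cyp4a14, a fatty acid omega-hydroxylase, rose by 1.94 (adjusted p = 0.0116) and the anion transporter Slc22a29 by 1.92 (adjusted p = 4.83e-05). Against this direction, Cyp2d12 fell from 94.3 ± 18.7 to 35.5 ± 15.7 FPM (log2 fold change -1.41, adjusted p = 0.0357); its call was kept in 2 of 10 fits that left out 1 library (adjusted p from 0.0285 to 0.0913, lost without a11, a12, a14, a15, a16, a18, a19 or a20).

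Among 22 enzymes of steroid hormone metabolism tested, 0 were called higher and 6 lower (1.27% and 0.909% of all genes tested). The list was drawn up after the values had been seen, so these counts cannot be weighed against those shares. Akr1c14, a 3-alpha-hydroxysteroid dehydrogenase, had 338, 257, 320.4, 314 and 409 FPM in SD and 119, 135, 123, 126 and 156 FPM in HFD (log2 fold change -1.31, SE 0.12, adjusted p = 6.39e-07). Hsd11b1, which regenerates active glucocorticoid, fell from 232 ± 21.9 to 107 ± 10.6 FPM (log2 fold change -1.11, adjusted p = 2.95e-05). Srd5a2, the steroid 5-alpha-reductase that makes dihydrotestosterone, fell from 15.96 ± 3.57 to 5.89 ± 0.962 FPM (log2 fold change -1.44, adjusted p = 3.19e-05). Each of these 3 genes had HFD libraries entirely below the SD libraries. Hsd17b11 fell by 1.32 and Akr1d1 by 0.63 (adjusted p = 4.17e-04 and 0.00258; Akr1d1 stood at -0.57 without a11 and -0.55 without a16, under the fold threshold). Hsd3b2 fell by 0.59 (adjusted p = 0.0313) and kept its call in 5 of 10 fits that left out 1 library; it was lost without a11, a13, a14, a19 or a20 (adjusted p from 0.0567 to 0.0998).

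**Figure D2:**
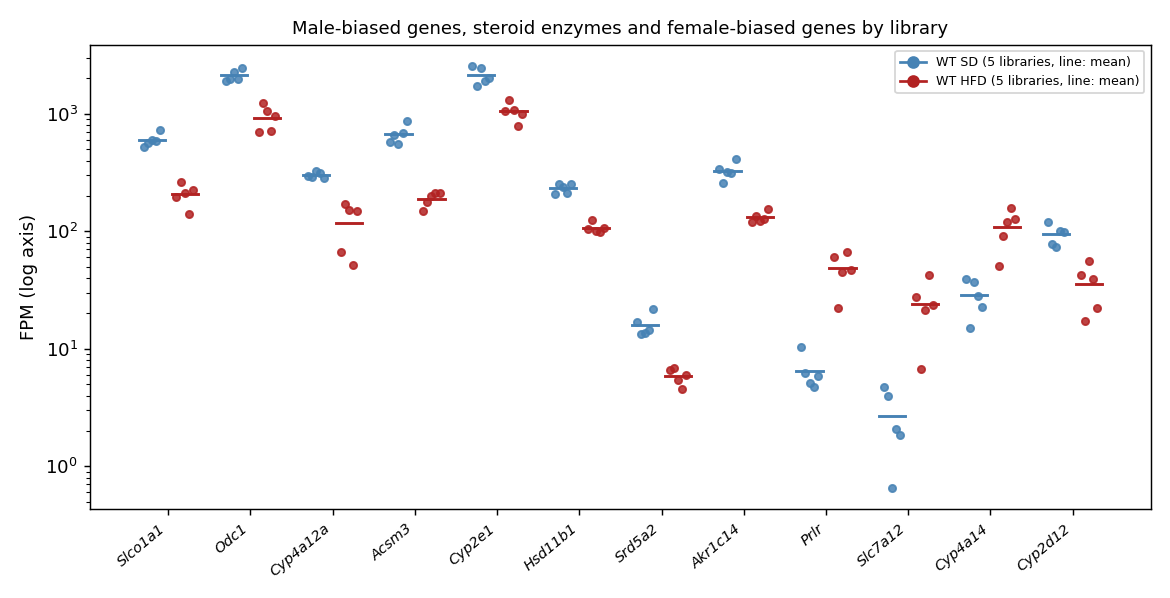
FPM on a log axis for male-biased genes (Slco1a1 to Cyp2e1), steroid enzymes (Hsd11b1, Srd5a2, Akr1c14) and female-biased genes (Prlr to Cyp2d12), with 1 point per WT library and a line at the mean of 5. For each gene the SD and HFD points occupy separate ranges, as for Slco1a1 at 526 to 726 FPM in SD and 139.8 to 261 FPM in HFD.

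Genes of lipid delivery changed strongly and in both directions. Of 24 tested genes of fatty acid uptake and lipoprotein handling, 2 were called higher and 3 lower. Apoe (ENSMUSG00000002985, chromosome 7, 19696109 to 19699188), an apolipoprotein that tubule cells and macrophages secrete, had 192, 186, 138, 159 and 151 FPM in SD and 678, 763, 749, 660.0 and 753 FPM in HFD (log2 fold change 2.12, SE 0.15, adjusted p = 3.65e-08). For Apoe, the spread within a diet was small beside the gap between the diets.

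Lpl (ENSMUSG00000015568, chromosome 8, 68880491 to 68907448), the lipoprotein lipase that releases fatty acids from circulating triglycerides, had 941, 1356, 1469, 1139.9 and 1311 FPM in SD and 211, 405, 447, 374 and 374 FPM in HFD (log2 fold change -1.78, SE 0.21, adjusted p = 2.18e-05). Cd36, a fatty acid receptor, had 652, 631, 612, 622 and 745 FPM in SD and 388, 368, 415, 402 and 402 FPM in HFD (log2 fold change -0.72, SE 0.07, adjusted p = 1.67e-06). Mfsd2a, a transporter of lysophosphatidylcholine, fell from 55.0 ± 29.2 to 12.4 ± 4.80 FPM (log2 fold change -2.14, adjusted p = 0.00531). The groups of all 3 genes were apart. Fat cells also express Lpl and Cd36. Without the SD libraries a16 and a19, left out after seeing that they held the most Ucp1, the log2 fold changes of Lpl and Cd36 were -1.93 and -0.75 (adjusted p = 8.34e-05 and 4.79e-05). For Lpl, a16 and a19 were the lowest SD libraries, so leaving them out had to deepen the fall. The part of fat tissue in the Lpl and Cd36 values was not tested further. Fabp1, a fatty acid binding protein, went from 0.367 ± 0.300 to 3.02 ± 1.18 FPM (log2 fold change 2.995, adjusted p = 0.0164), under the 5 FPM threshold.

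Called genes of cholesterol synthesis were lower under HFD. Of 20 tested genes, 0 were called higher and 3 lower (median log2 fold change -0.23), and 19 had a fold change below 0. Idi1, an isomerase of the isoprenoid steps, had 161, 255, 169, 234 and 223 FPM in SD and 67.4, 111, 114, 115 and 125 FPM in HFD (log2 fold change -0.97, SE 0.17, adjusted p = 0.00151). Cyp51, the lanosterol demethylase, had 297, 282, 354, 275 and 313 FPM in SD and 146, 185, 171, 204 and 235 FPM in HFD (log2 fold change -0.69, SE 0.12, adjusted p = 0.00105). Neither gene overlapped between the diets. The regulator Srebf2 stood at -0.15 (adjusted p = 0.417).

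Fatty acid synthesis gave 2 genes called lower of 15 tested, and both varied widely between the SD libraries. Fasn, the fatty acid synthase, had 156, 119, 53.1, 266 and 68.6 FPM in SD and 48.9, 51.0, 64.3, 57.0 and 55.5 FPM in HFD (log2 fold change -1.26, SE 0.32, adjusted p = 0.0197). Thrsp, a lipogenic nuclear protein, had 25.0, 10.7, 2.01, 63.9 and 5.05 FPM in SD and 3.25 to 5.62 FPM in HFD (log2 fold change -2.40, adjusted p = 0.0463). Cidea, a lipid droplet protein of brown fat, had 11.4, 2.02, 0, 20.6 and 0.579 FPM in SD and 0.126 to 0.679 FPM in HFD (log2 fold change -4.48, adjusted p = 0.0456). For each of the 3 genes, the SD library a18 lay within or below the HFD range, and a16 and a19 were the highest SD libraries. In the SD group, a16 and a19 also had the highest adipocyte marker levels (3.53 and 3.98 on the log2(FPM + 1) scale). The HFD library a13 had an adipocyte marker level of 3.15, with Fasn at 64.3 and Thrsp at 5.62 FPM.

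Brown fat's uncoupling protein Ucp1 had 6.96, 2.71, 0, 44.5 and 0.290 FPM in the SD libraries a16 to a20 and 0 to 1.44 FPM in HFD, and the adipokine Adipoq 10.4, 3.09, 0.262, 10.3 and 0.993 FPM in SD and 1.14 to 8.003 FPM in HFD. Of 8 adipocyte markers tested, 0 were called by edgeR's quasi-likelihood test (3 had an unadjusted p under 0.05; the DESeq2 Wald test called 1, Cfd, at -3.10, adjusted p = 0.0310), and their summed level ranged from 36.8 to 263 FPM in SD and from 62.4 to 153 FPM in HFD. Of 7 brown adipocyte genes tested, a list also drawn up after the values had been seen, 0 were called higher and 1, Cidea, lower. Without a16 and a19, log2 fold changes were -0.53 for Fasn (adjusted p = 0.236), -0.55 for Thrsp (0.655) and -1.48 for Cidea (0.590), and none of the 3 was called. Since a16 and a19 were the highest SD libraries for all 3 genes, leaving them out had to shrink the falls. This fit therefore cannot decide the part of fat tissue. Single libraries also ended calls: Fasn without a11 or a19 (adjusted p = 0.0527 and 0.0508), and Thrsp and Cidea without a11, a12, a13, a14, a15, a16 or a19 (adjusted p from 0.0699 to 0.181). With the adipocyte level as a covariate, Fasn and Thrsp kept their calls at -0.999 and -1.42 (adjusted p = 0.00720 and 0.0313) and Cidea did not (-2.47, adjusted p = 0.179). In KO, Fasn stood at -0.31 (adjusted p = 0.648), Thrsp at 0.06 (0.976) and Cidea at 1.08 (0.702), and for 4 of the 7 brown adipocyte genes the interaction of diet and genotype gave an unadjusted p under 0.05. The part of fat tissue in these 3 differences was not tested further.

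**Figure D3:**
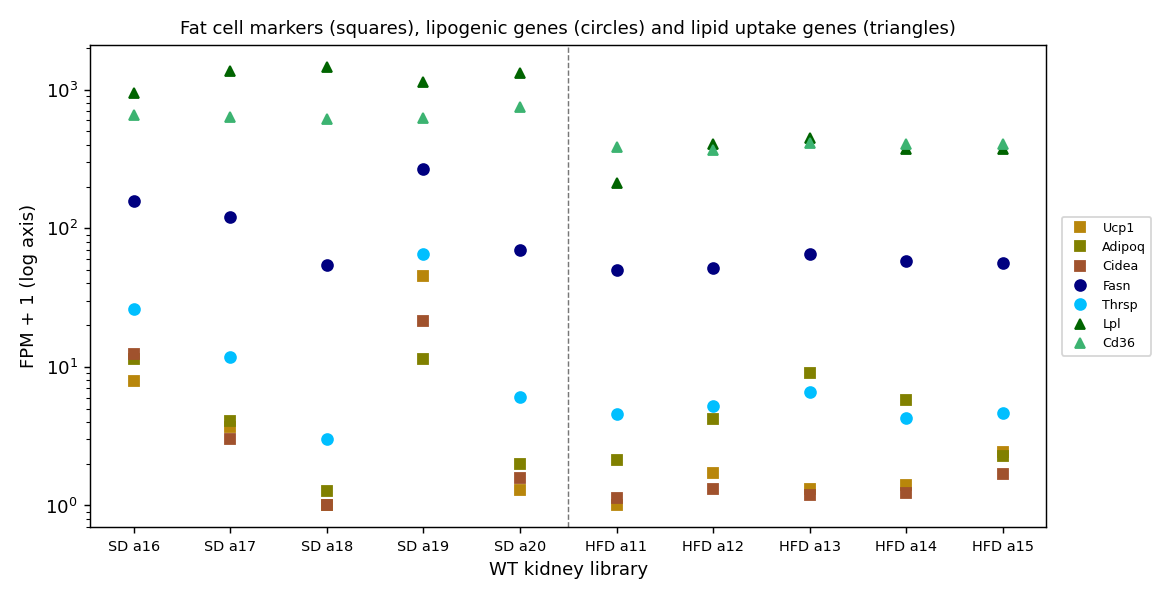
FPM + 1 on a log axis in each WT library (SD to the left of the dashed line, HFD to the right) for fat cell markers (squares), lipogenic genes (circles) and lipid uptake genes (triangles). Ucp1, Cidea, Thrsp and Fasn peak together in the SD library a19 (Ucp1 44.5 FPM, Fasn 266 FPM), whereas Lpl and Cd36 form separate levels by diet in all libraries shown.

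Fatty acid oxidation genes did not move as a block. In mitochondria, 0 of 17 tested genes were called by edgeR's quasi-likelihood test or the DESeq2 Wald test (5 had an unadjusted p under 0.05; median log2 fold change -0.07): the gatekeeper Cpt1a stood at -0.20 (adjusted p = 0.280), and the dehydrogenase Acadm at -0.58 (adjusted p = 0.00316), under the fold threshold but past it without a12, a15, a17 or a19 (-0.63, -0.62, -0.63 and -0.59). In peroxisomes, which shorten very long and branched chains, 1 gene was called higher and 4 lower of 24 tested. Agps (ENSMUSG00000042410, chromosome 2, 75832177 to 75931350), which makes ether lipids, had 457, 467, 479, 516 and 576 FPM in SD and 250.2, 231, 276, 245 and 271 FPM in HFD (log2 fold change -0.97, SE 0.09, adjusted p = 1.67e-06). The beta-oxidation enzymes Acox2, Eci3 and Ehhadh fell by 0.77, 0.77 and 0.61 (adjusted p = 5.05e-05, 0.00166 and 6.99e-04). Ehhadh missed the fold threshold without a11, a17 or a18 (-0.53, -0.58 and -0.57) and Eci3 without a18 (-0.57). Acnat1, an acyltransferase that conjugates fatty acids, rose by 1.07 (adjusted p = 0.00224).

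Targets of PPAR-alpha, the nuclear receptor activated by fatty acids, were split, with 2 called higher and 3 lower of 22 tested. Cyp4a14 rose, and Cyp4a12a, Ehhadh and Cidea fell, as given above. The receptor itself, Ppara, stood at 0.43 (adjusted p = 0.338) and Pdk4, the kinase that blocks glucose oxidation, at -0.21 (adjusted p = 0.819). Of 8 tested genes of ketone body metabolism, 1 was called higher and 1 lower. The lower one, the ketone body dehydrogenase Bdh1, fell by 0.74 (246 ± 35.1 to 148 ± 12.1 FPM, adjusted p = 4.09e-04).

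Of 21 acyl-CoA synthetases and thioesterases tested, 2 were called higher and 3 lower. The medium-chain enzymes Acsm2, Acsm3 and Acsm5 fell, Acsm2 from 6629.7 ± 348 to 3808 ± 245 FPM (log2 fold change -0.80, adjusted p = 3.16e-05) and Acsm5 by 0.67 (adjusted p = 6.11e-04; -0.57 without a16, under the fold threshold). Acsf2, a mitochondrial family member linked to ferroptosis, had 11.7, 10.8, 9.71, 15.5 and 14.9 FPM in SD and 35.6, 38.6, 33.7, 34.4 and 40.3 FPM in HFD, without overlap (log2 fold change 1.54, SE 0.13, adjusted p = 4.69e-07). Acss1, the mitochondrial acetate-activating enzyme, rose by 0.83 (adjusted p = 0.00271). Of 25 tested genes of lipid droplets and triglyceride turnover, 2 were called higher and 1, Cidea, lower, and 18 stood below 0. By adjusted p alone, 3 of these genes were higher and 6 lower. In triglyceride synthesis, Mogat2 rose by 0.93 (adjusted p = 0.00777; 0.0633 without a16 and a19) and Gpat3 by 0.92 (adjusted p = 0.0423). Gpat3 kept its call in 2 of 10 fits that left out 1 library and lost it without a11, a13, a14, a15, a16, a17, a18 or a19 (adjusted p from 0.0692 to 0.100).

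Eicosanoid enzymes of the cytochrome P450 families were likewise mixed. Besides Cyp4a12a and Cyp4a14, Cyp4f16 rose by 0.75 (adjusted p = 6.11e-04), Cyp2c69 rose from 0.690 ± 0.194 to 5.80 ± 1.402 FPM (log2 fold change 3.06, adjusted p = 5.05e-06) and Cyp2j9 fell by 0.72 (adjusted p = 0.0130; 0.0579 with only the 10 WT libraries and 0.0940 without a16 and a19). Ephx2, the soluble epoxide hydrolase that breaks down epoxyeicosatrienoic acids, fell by 0.62 (694 ± 121 to 452 ± 56.3 FPM, adjusted p = 9.82e-04), and missed the fold threshold without a14 or a18 (-0.55 and -0.49). Families of this kind share sequence, and how reads with several positions were counted is not given in the sources used here, so values of single members are uncertain.

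**Figure D4:**
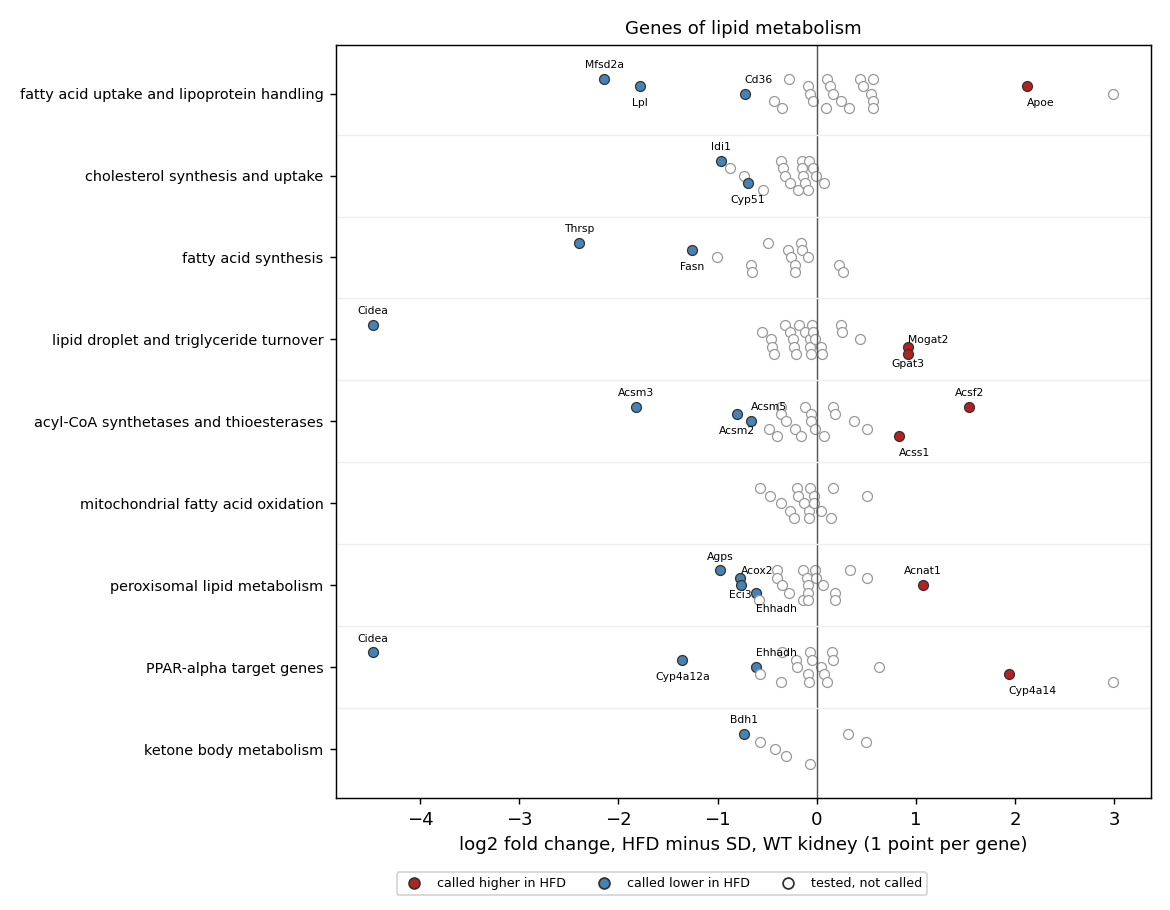
Log2 fold changes (HFD minus SD, WT kidney; x axis) of the tested genes in 9 lists of lipid metabolism (y axis), with called genes filled and named and members not reported here left out. Called genes lie on both sides in most lists, from Cidea at -4.48 to Apoe at 2.12, and the list of mitochondrial fatty acid oxidation holds none.

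Of 16 genes of gluconeogenesis and glucose transport, 2 were called higher and 0 lower, Slc5a2 and G6pc, the glucose-6-phosphatase that releases free glucose. G6pc rose from 409.9 ± 75.1 to 748 ± 158 FPM (log2 fold change 0.87, adjusted p = 0.0272), with no overlap, and its call was kept in 4 of 10 fits that left out 1 library (lost without a11, a13, a16, a17, a18 or a20, adjusted p from 0.0517 to 0.0842). Pck1, the other key enzyme of glucose production, stood at 0.49 (adjusted p = 0.101). Of 20 genes of glycolysis and fructose metabolism, 1 was called higher and 1, Akr1b3, lower (median -0.05). Pklr, the pyruvate kinase of liver and proximal tubule, rose from 31.9 ± 3.59 to 66.9 ± 6.20 FPM (log2 fold change 1.07, adjusted p = 3.53e-06), with 22.0% of its exon bases shared with Hcn3 on the other strand. Neither the citric acid cycle (16 genes) nor the nuclear-encoded respiratory chain (25 genes) had a called gene by edgeR's quasi-likelihood test or the DESeq2 Wald test; 1 gene of each had an unadjusted p under 0.05, and the medians were -0.05 and -0.11.

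The called genes of serine synthesis and glycine cleavage rose, and those of the methionine cycle fell. Phgdh (ENSMUSG00000053398, chromosome 3, 98313170 to 98339990), which opens serine synthesis, had 9.35, 7.56, 8.96, 12.2 and 9.89 FPM in SD and 20.04, 47.0, 29.9, 27.6 and 35.8 FPM in HFD (log2 fold change 1.74, SE 0.19, adjusted p = 5.88e-06). Psat1, its next enzyme, had 23.7, 30.6, 30.7, 43.6 and 27.6 FPM in SD and 41.9, 90.3, 70.4, 66.1 and 92.3 FPM in HFD (log2 fold change 1.21, adjusted p = 9.20e-04). Gldc, the glycine cleavage enzyme, rose from 81.7 ± 34.2 to 227 ± 27.8 FPM (log2 fold change 1.47, adjusted p = 0.00363). Phgdh and Gldc did not overlap between the diets, and Psat1 overlapped by the SD library a19 and the HFD library a11.

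In the methionine cycle, Gnmt, which disposes of methyl groups onto glycine, fell from 31.3 ± 7.18 to 18.0 ± 2.999 FPM (log2 fold change -0.80, adjusted p = 0.00196). Cbs, which leads homocysteine to cysteine, fell by 0.62 (adjusted p = 2.56e-04; -0.58 without a14 and -0.55 without a18, under the fold threshold). Mat2a, which makes S-adenosylmethionine, fell by 0.67 (adjusted p = 0.0182; 0.0598 without a14 and 0.0557 without a17). Over 22 tested genes of one-carbon, methionine and glycine metabolism, 2 were called higher (Gldc and Gatm) and 3 lower; Phgdh and Psat1 were the 2 called of 20 tested genes of the unfolded protein and amino acid stress list.

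Amino acid breakdown gave 3 genes called higher and 1 lower of 33 tested. Most of the list lay the other way: 25 genes stood below 0 (median log2 fold change -0.18). By adjusted p alone, 6 were higher and 12 lower. Prodh2, the hydroxyproline dehydrogenase, had 88.4, 51.3, 65.1, 52.9 and 57.1 FPM in SD and 187, 201, 192, 186 and 175 FPM in HFD, a clean separation (log2 fold change 1.58, SE 0.22, adjusted p = 1.70e-04). Agxt2, a mitochondrial aminotransferase that also degrades dimethylarginines, rose by 0.81 (adjusted p = 8.48e-06) and Kynu, an enzyme of tryptophan breakdown, by 1.49 (adjusted p = 0.0149). Bcat1, a branched-chain aminotransferase, fell by 0.85 (adjusted p = 0.0314), and it lost its call without a11, a14, a15, a17 or a18 (adjusted p from 0.0604 to 0.112). Among transporters, the heavy chain Slc3a2 rose by 0.63 and its partner Slc7a8 by 0.91 (adjusted p = 6.93e-05 and 0.00622), and the neutral amino acid carrier Slc1a4 fell by 1.08 (adjusted p = 1.18e-04). Slc3a2 stood at 0.58, under the fold threshold, without a12.

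Genes of plasma proteins, a list drawn up after the values had been seen, included some of the largest changes. Of 37 tested, 10 were called higher and 5 lower (1.27% and 0.909% of all genes tested). Because the members were picked with their values known, these counts cannot be weighed against those shares. Gc (ENSMUSG00000035540, chromosome 5, 89417522 to 89457898), the vitamin D binding protein, had 25.3, 24.1, 20.7, 23.4 and 24.7 FPM in SD and 114, 107, 121, 135 and 143 FPM in HFD (log2 fold change 2.39, SE 0.12, adjusted p = 3.67e-10). Ttr, the thyroxine and retinol carrier transthyretin, had 186, 130.2, 175, 129 and 104 FPM in SD and 389, 848, 473, 374 and 449 FPM in HFD (log2 fold change 1.80, SE 0.21, adjusted p = 1.83e-05). Neither gene overlapped, and a12 was the highest HFD library for Ttr. Coagulation genes were among the others: the fibrinogen chains Fgb and Fgg rose by 2.69 and 1.34 (adjusted p = 0.0100 and 0.00283), factor V (F5) by 1.63, antithrombin (Serpinc1) by 1.97 and the tissue factor pathway inhibitors Tfpi and Tfpi2 by 1.38 and 1.07 (adjusted p = 0.00834, 4.69e-07, 0.00218 and 0.00262).

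Levels of several of these were low, such as Fgb at 0.437 to 1.16 FPM in SD and 3.07 to 8.06 FPM in HFD; its mean passed 5 FPM under HFD only with a14 present. Serpinc1 shares 34.4% of its exon bases with Zbtb37 on the other strand. Falling plasma protein genes were Pzp, a broad protease inhibitor (172 ± 10.5 to 84.5 ± 5.78 FPM, log2 fold change -1.02, adjusted p = 5.05e-06), Azgp1 (-1.02, adjusted p = 2.07e-04), Hrg (-0.94, adjusted p = 0.00441), Itih2 (-0.86, adjusted p = 0.00425) and Serpina1d (-0.67, adjusted p = 0.0327). Serpina1d kept its call in 4 of 10 fits that left out 1 library and lost it without a11, a13, a14, a15, a16 or a18 (adjusted p from 0.0670 to 0.111).

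Of 22 complement genes tested, 6 were called higher and 2 lower (1.27% and 0.909% of all genes tested), with a median log2 fold change of 0.57. C3 (ENSMUSG00000024164, chromosome 17, 57203970 to 57228136), the central component, had 13.4, 21.2, 12.6, 16.8 and 11.2 FPM in SD and 49.2, 39.5, 55.6, 39.6 and 29.2 FPM in HFD, without overlap (log2 fold change 1.502, SE 0.21, adjusted p = 1.70e-04). Of the classical pathway, the proteases C1ra and C1s1 rose by 0.86 and 0.92 (adjusted p = 0.00779 and 0.0299) and the recognition chains C1qb and C1qc by 0.75 and 0.81 (adjusted p = 0.0386 and 0.0161). C4b rose by 0.87 (adjusted p = 0.0260) while C4a fell by 1.38 (adjusted p = 0.00362); these paralogs are nearly identical, so the split of reads between them is uncertain. Cd55, which protects cells from complement, fell from 19.6 ± 1.89 to 12.2 ± 0.455 FPM (log2 fold change -0.68, adjusted p = 5.05e-05).

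Single libraries decided several of the smaller complement calls. C1s1 was not called without a11, a13, a14, a15 or a16 (adjusted p from 0.0502 to 0.0879), C4b without a13, a16 or a20 (0.0984, 0.0740 and 0.0563), and C1qc without a13 (0.0521). C3, C1ra, C4a and Cd55 were called in all 10 fits that left out 1 library, but C1ra was not called without a16 and a19 (0.70, adjusted p = 0.0883) or with only the 10 WT libraries (0.0555). The mean complement level was lowest in the SD libraries a18 and a16 (2.97 and 3.38 on the log2(FPM + 1) scale, against 3.52 to 3.72 in the other SD libraries and 3.597 to 3.94 in HFD). These 2 libraries were also lowest for fibroblast and mural cell markers (3.08 and 3.53, against 4.05 to 4.64 in the other 8), podocytes, endothelium and macrophages. Of 9 fibroblast and mural cell markers tested, 0 were called by edgeR's quasi-likelihood test or the DESeq2 Wald test, 4 had an unadjusted p under 0.05 and all 9 had a fold change above 0 (median 0.39; 0.24 and 8 of 9 without a18). The part of these cell types in the complement values was not tested.

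Some macrophage markers were higher under HFD, with calls that depended on single libraries. Of 12 tested, 4 were called higher and 0 lower (median log2 fold change 0.74): C1qb and C1qc, the lysozyme Lyz2 (0.71, adjusted p = 0.0484) and the protease Ctss (0.80, adjusted p = 0.0381). The growth factor receptor Csf1r stood at -0.18 (adjusted p = 0.345) and Adgre1, the F4/80 antigen, at 0.88 (adjusted p = 0.0845). C1qc had 9.35, 14.1, 5.07, 10.8 and 11.6 FPM in SD and 15.9, 19.4, 22.3, 15.3 and 16.5 FPM in HFD, with a18 the lowest of all. Summed over the list, levels were 267 to 506 FPM in SD and 422 to 591 FPM in HFD. Between 0 (without a13) and 8 (without a17) of the markers were called when 1 library was left out, 2 without a1 and a12 and 7 by the DESeq2 Wald test. Lost calls were those of C1qb without a11, a12, a13, a16, a18, a19 or a20 (adjusted p from 0.0561 to 0.110), Lyz2 without these or a14 (0.0509 to 0.153) and Ctss without a11, a12, a13, a14, a15, a16, a18 or a19 (0.0504 to 0.109).

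Among antigen presentation genes, H2-DMb1, a chaperone of class II loading, was called higher, 1 of 16 tested (0.65, adjusted p = 0.0260), and lost its call without a12, a16, a18 or a19 (adjusted p = 0.0685, 0.0523, 0.0692 and 0.0610). Interferon-induced genes (25 tested) and inflammatory mediators (23 tested) had 0 called genes by edgeR's quasi-likelihood test, 1 and 7 with an unadjusted p under 0.05, and 0 and 1 called by the DESeq2 Wald test. The mean level of the inflammatory list was 3.49 on the log2(FPM + 1) scale in the SD library a17. It was 2.07 to 2.38 in the other SD libraries and 2.45 to 2.73 in HFD. By adjusted p alone, 1 inflammatory gene was higher, the chemokine Cxcl16 (0.56, adjusted p = 0.0108), which passed the fold threshold without a11, a14, a17 or a18 (0.60 to 0.63). Vcam1, an adhesion molecule of injured tubules, stood at 0.84 (adjusted p = 0.0699) and was called without a17 (1.19, adjusted p = 0.00268) and by the DESeq2 Wald test (0.83, adjusted p = 0.0233).

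**Figure D5:**
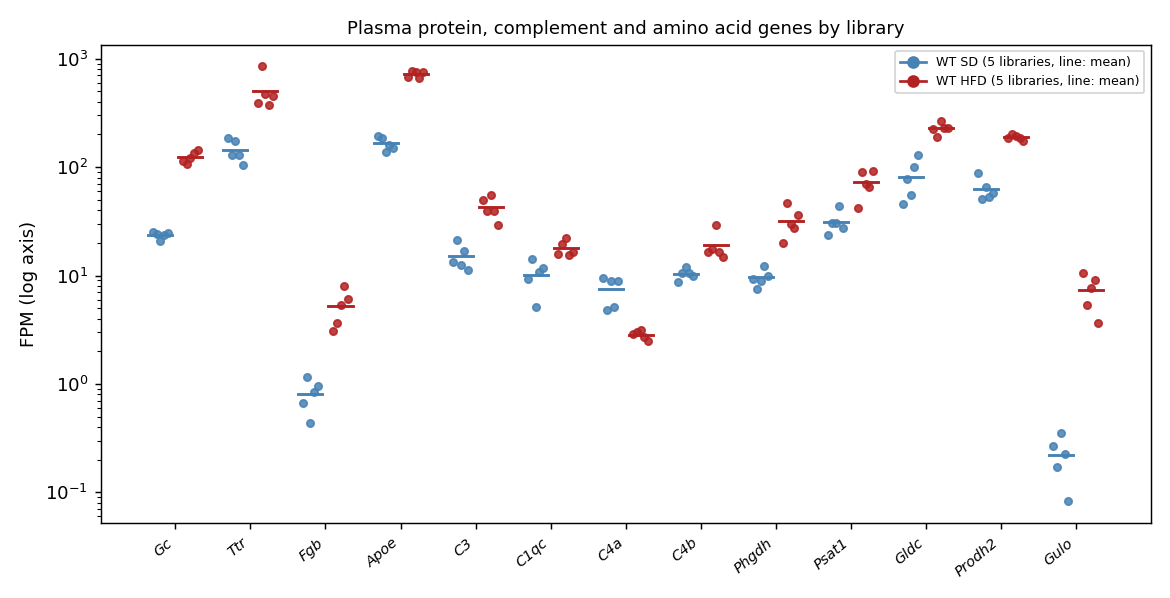
FPM on a log axis for plasma protein, lipoprotein, complement and amino acid genes and Gulo, with 1 point per WT library and a line at the mean of 5. Gc, Ttr, Apoe, C3, Prodh2 and Gulo separate the diets completely, with Gc at 20.7 to 25.3 FPM in SD and 107 to 143 FPM in HFD; C4a is the gene shown that is lower under HFD.

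Vitamin and hormone genes held large single changes. Cyp24a1 (ENSMUSG00000038567, chromosome 2, 170482708 to 170497145), the enzyme that inactivates vitamin D, had 53.9, 114, 184, 39.2 and 75.9 FPM in SD and 636, 455, 420.4, 439.6 and 273 FPM in HFD, without overlap (log2 fold change 2.25, SE 0.45, adjusted p = 0.00451). Its opposing enzyme Cyp27b1, which activates vitamin D, stood at 0.68 (adjusted p = 0.476) and the receptor Vdr at 0.11 (adjusted p = 0.724). It was the 1 called gene of 14 tested for phosphate, calcium and vitamin D. In vitamin A metabolism, with 2 genes called higher and 1 lower of 15, the retinal dehydrogenases Aldh1a1 and Aldh1a7 rose by 1.43 and 1.12 (adjusted p = 5.44e-05 and 1.80e-04) and Adh1, an alcohol and retinol dehydrogenase, fell by 0.64 (adjusted p = 0.00437; -0.56 without a14 and -0.51 without a18, under the fold threshold).

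Ace, the angiotensin-converting enzyme of endothelium and brush border, had 321, 338, 344, 291 and 306 FPM in SD and 169, 204, 207, 188 and 197 FPM in HFD, again without overlap (log2 fold change -0.73, SE 0.09, adjusted p = 5.75e-05). It was the 1 called gene of 10 tested in the renin-angiotensin list, where Ren1 stood at 0.54 (adjusted p = 0.348) and the receptor Agtr1a at 0.18 (adjusted p = 0.289). No gene of 22 tested for sodium, chloride and potassium transport was called by edgeR's quasi-likelihood test or the DESeq2 Wald test; 2 had an unadjusted and 1 an adjusted p under 0.05, and 1, Slc12a3, was called without a12. Of 9 genes of the EGF receptor family and its ligands, 0 were called by edgeR's quasi-likelihood test or the DESeq2 Wald test and 3 had an unadjusted p under 0.05, with Egfr at 56.3 ± 5.81 and 40.5 ± 11.3 FPM (log2 fold change -0.48, adjusted p = 0.118; called lower with the podocyte level as a covariate, -0.61, adjusted p = 0.0473).

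Drug-handling genes changed in both directions. The efflux pump Abcb1b had 14.1, 8.503, 10.3, 9.39 and 10.7 FPM in SD and 33.3, 23.4, 33.3, 41.5 and 36.3 FPM in HFD (log2 fold change 1.66, SE 0.18, adjusted p = 6.32e-06), with the diets apart. Abcb1a, its paralog, rose by 0.91 (adjusted p = 0.0144), and Abcc4, an exporter of organic anions and cyclic nucleotides, by 1.23 (adjusted p = 0.0171; 0.0537 without a11, 0.0530 without a14 and 0.0532 without a18). The uptake carriers Slc22a7, Slc22a12, Slc22a19 and Slco1a1 were lower, so 3 genes were called higher and 4 lower of 23 organic anion and cation transporters. Of the glucuronosyltransferases, Ugt2b34 rose by 1.28 (adjusted p = 0.0173; 0.0528 without a18) and Ugt2b38 and Ugt3a1 fell by 0.80 and 0.82 (adjusted p = 4.51e-04 and 2.18e-04). Glutathione transferases gave Gsto1 and Mgst1 higher (0.90 and 0.70, adjusted p = 5.05e-05 and 0.00803) and Gstm1 lower (-0.69, adjusted p = 0.00206).

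Few genes of injury, matrix and growth were called. Cp, the copper oxidase ceruloplasmin, was the 1 gene called of 17 tubular injury genes (33.8 ± 11.7 to 69.9 ± 15.9 FPM, log2 fold change 1.05, adjusted p = 0.00453, with overlapping groups). The mean level of the injury list was 4.67 on the log2(FPM + 1) scale in the SD library a17. It was 3.75 to 3.94 in the other SD libraries and 4.02 to 4.39 in HFD. Sox9, a transcription factor of tubule repair, went from 0.404 ± 0.369 to 3.40 ± 0.873 FPM (log2 fold change 3.09, adjusted p = 5.44e-05), below the 5 FPM threshold, while Havcr1 and Lcn2, the injury markers KIM-1 and NGAL, stood at 0.93 and 1.04 (adjusted p = 0.368 and 0.153). Of 31 matrix genes, 1 was called higher and 1 lower, 14 had an unadjusted p under 0.05 and 26 a fold change above 0 (median 0.36). Without a17, 5 were called higher and 0 lower (median 0.62). The mean matrix level was lowest in the SD libraries a18 and a16 (3.35 and 3.68 on the log2(FPM + 1) scale). The other SD libraries, at 4.10 to 4.59, overlapped the HFD libraries, at 4.21 to 4.63. Col8a1, a short-chain collagen, had 1.398, 3.48, 6.08, 4.64 and 5.05 FPM in SD and 10.5, 15.9, 15.4, 11.5 and 22.9 FPM in HFD, without overlap (log2 fold change 1.89, adjusted p = 0.00258). Col5a2 fell by 0.82 (adjusted p = 0.0193), with a call lost without a15 or a17 (0.0581 and 0.0540). Arsa, a lysosomal sulfatase, rose by 0.78 (adjusted p = 4.34e-04), 1 of 20 genes of endocytosis and lysosome. Proliferation (20 genes), the circadian clock (18) and immediate-early genes (14) had 0 called genes by edgeR's quasi-likelihood test or the DESeq2 Wald test, and 5, 0 and 1 with an unadjusted p under 0.05. All 14 immediate-early genes stood below 0 (median -1.99), and without a17, the SD library highest for them, all 14 stood above 0 (median 0.55).

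Promoters of the called genes were read from RefSeq (GRCm38.p6; 250 bases before to 50 after the start), which matched 154 of the 202 higher and 105 of the 145 lower genes. The sterol response element TCACNCCAC, searched on both strands, was present in 0.649% of the promoters of higher genes, 2.86% of those of lower genes 1.47% of those of the genes tested and 1.44% of all promoters in the table. The shares were 7.79%, 7.62%, 11% and 8.09% for the E-box CACGTG and 0%, 0%, 0.056% and 0.0481% for the direct repeat of AGGTCA with 1 base between, the site bound by PPAR. Neither Idi1 nor Cyp51 was among the called genes with a sterol element in this window. Only 105 of the 145 lower genes had a promoter to search, so this does not show that Idi1 and Cyp51 lack the element. Of the 3 genes called lower that hold it, Ehhadh and Gnmt are described above, and their promoters are shown so that the match can be seen, with the element (on the opposite strand) in capitals. They lie at chr16:21787785-21788084 and chr17:46729116-46729415, both on the minus strand, and are written 5′ to 3′ in the direction of the gene.
Ehhadh: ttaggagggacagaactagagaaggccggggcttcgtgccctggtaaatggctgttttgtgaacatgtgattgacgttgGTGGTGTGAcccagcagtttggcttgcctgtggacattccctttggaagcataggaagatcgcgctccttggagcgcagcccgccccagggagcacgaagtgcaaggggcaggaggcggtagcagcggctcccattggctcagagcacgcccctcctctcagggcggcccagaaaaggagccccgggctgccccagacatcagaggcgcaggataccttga
Gnmt: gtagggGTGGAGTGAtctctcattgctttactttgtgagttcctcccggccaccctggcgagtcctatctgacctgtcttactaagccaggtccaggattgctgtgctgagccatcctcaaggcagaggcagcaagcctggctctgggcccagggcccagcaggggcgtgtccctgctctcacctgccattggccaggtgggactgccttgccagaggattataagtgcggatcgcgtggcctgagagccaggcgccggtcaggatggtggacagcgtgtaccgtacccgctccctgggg
A match is a description of these letters and not of binding.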

How the data were processed

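The authors deposited raw read counts per gene in 1 table for each tissue, and the table of the 20 kidney libraries was used. RNA extracted with TriZol was treated with DNase and enriched with oligo(dT) beads; the submitters' processing notes name HISAT2 2.1.0 and featureCounts, while the study's methods name another aligner, and strand and multiple-mapping settings are not given in the sources used here. Genes were named by ID and placed with the GENCODE annotation of GRCm38.

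Counts of the 20 kidney libraries, with 23354297 to 48833447 counts per WT library, were filtered by expression, normalized by TMM and fitted together by edgeR 4.0.16's robust quasi-likelihood model in R 4.3.3, and HFD was compared with SD in WT. P-values were adjusted by Benjamini-Hochberg over 15943 genes. Genes were called at an adjusted p under 0.05 where they also changed by more than 1.5-fold and averaged above 5 FPM on either diet. The fit was tested on simulated data. Members and lists were chosen with earlier results of these data known, and 3 lists (plasma proteins, steroid enzymes, brown adipocytes) after the values were seen. Of each of 63 lists, up to 8 called genes of smallest p were named, or the 2 tested genes of smallest p where none was called, with the first marker of each cell type list, members with a partner role, and the 10 largest changes in each direction among called genes without overlap. Eri2 was named after its values were seen. Alternatives were DESeq2 1.42.0, another normalization, no filter, no robust estimation, other thresholds, clock and immediate-early covariates, WT libraries alone and leaving out libraries; 3 more (adipocyte and podocyte covariates, leaving out a16 and a19) were chosen after seeing the data. Genes on chromosomes 9, MT, X and Y were not analysed here, and some members of the lists are counted but not reported here by name.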

Additional observations from a re-analysis of the deposited data

Results flagged for a closer look

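Of 234 groups of 5 libraries examined, 19 held 1 library far from the other 4. The limit used marks about 1 group in 20 by chance where groups are independent and normally distributed. Groups here shared libraries and genes, so that rate does not apply to them. The total count was 31369285 in a16, against 23532144 to 25669396 in the other SD libraries, and 48833447 in a12, against 23354297 to 24906014 in the other HFD libraries. The difference of the diet effect between KO and WT gave 0 genes at an adjusted p under 0.05.

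The SD library a17 stood above the other SD libraries in several lists. Its mean level on the log2(FPM + 1) scale was 7.11 for immediate-early genes (2.83 to 3.19 in the others), 4.67 for tubular injury (3.75 to 3.94), 3.49 for inflammation (2.07 to 2.38), 2.54 for neutrophils (0.356 to 0.964) and 6.48 for NRF2 targets (6.22 to 6.26). It was also highest for distal convoluted tubule markers, at 6.93 (6.73 to 6.76). The SD library a18 was lowest for amino acid transport, at 6.14 (6.30 to 6.35), and a20 for adrenal markers, at 2.07 (2.46 to 2.53).

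Among HFD libraries, a13 was highest for endothelial markers, at 5.77 (5.66 to 5.69), and a11 was highest for clock genes, at 5.07 (4.52 to 4.63), and lowest for brown adipocyte markers, at 1.70 (1.90 to 1.95).

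Single genes with 1 library apart were Prlr at 10.4 FPM in SD a16 (4.75 to 6.23 in the others), Slc22a7 at 447 FPM in SD a18 (198 to 251), Ucp1 at 44.5 FPM in SD a19 (0 to 6.96), Idi1 at 67.4 FPM in HFD a11 (111 to 125), Ttr at 848 FPM in HFD a12 (374 to 473) and C4b at 29.1 FPM in HFD a13 (14.8 to 17.5). Prlr, Slc22a7, Idi1 and Ttr kept their calls without the library concerned.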

How the results depend on the processing

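The 347 called genes (202 higher, 145 lower) became 1069 (483 and 586) by adjusted p alone, 122 (77 and 45) at a fold over 2, and 546 without the FPM threshold (339 higher). Under the other alternatives that kept all thresholds, counts ran from 289 with only the 10 WT libraries to 385 by the DESeq2 Wald test; leaving out 1 library of the WT groups gave 298 to 402 (180 to 254 higher, 116 to 165 lower). The interaction gave 0 genes under every alternative run.

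Of 121 named genes that were called, 76 kept the call in every alternative and 86 in all 10 fits leaving out 1 library; 0 changed direction. Calls were lost by 26 with the podocyte covariate, 25 without a16 and a19, 19 without the filter, 17 with only the 10 WT libraries and 9 without a1 and a12. Of 3738 values of named genes under alternatives, 3452 kept their direction and side of the thresholds, 230 lost a call, 43 gained one and 13 reversed, all in genes not called. The reversed log2 fold changes, whose cause was not tested, were 0.0268 for Star without a16 and a19 (-0.15 to 0.0347 leaving out 1 library), -0.0291 for Hbb-bt without a1 and a12 (-0.0292 to 0.36 leaving out 1), 0.36 for Hba-a1 with the podocyte covariate (-0.24 to 0.34 leaving out 1), 0.0293 for Aqp2 without a16 and a19, and 0.50 and 1.34 for Adipoq with the adipocyte covariate and without a16 and a19. Leaving out 1 library gave -1.67 to 0.27 for S100a9, -2.68 to 0.26 for Btg2 and -3.17 to 0.54 for Atf3. Genes at a few FPM, such as Fgb and Fabp1, are limited by depth.

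No paired analysis was possible because the diet groups share no library numbers.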
